A study of Mus musculus with 12 samples.

Results

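The genes of the cytosolic ribosomal proteins were followed in crypt cells of the mouse small intestine. A gene was taken where the GENCODE vM39 annotation lists it as protein coding under a symbol of Rpl or Rps with a digit, and Rplp0, Rplp1, Rplp2 and Rpsa were added, while kinases named Rps6k and symbols ending in -ps were left out. This rule, which uses no measured value, gave 90 of the 55414 genes in the table. They were 31 proteins of the small subunit, 43 of the large subunit, 3 of the stalk and 12 relatives, which are protein-coding genes named after a ribosomal protein. The last, Rps19bp1, encodes a protein that binds Rps19 and shares only the name. Fau, which encodes a ribosomal protein fused to a ubiquitin-like sequence, does not carry such a symbol and was counted with other genes.

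RNA was sequenced from 12 libraries, 3 for each of 4 groups: Paneth and non-Paneth crypt cells of wild type (WT) mice, and the same fractions of mice in which villin-expressing epithelial cells lack Nr3c1, the glucocorticoid receptor gene (GRKO). All mice were naive C57BL/6J animals of 8 to 12 weeks, and no group was treated. The Paneth gate took cells positive for CD24 and cKIT, of medium to high side scatter and negative for CD31, CD45 and TER119. The non-Paneth gate is not stated. The deletion is not limited to Paneth cells, since villin is made throughout the gut epithelium. Titles of the samples gave the genotype, because the genotype field gives every Paneth library as WT and every non-Paneth library as GRKO. Nr3c1 followed the titles. This gene was at 33.0 to 41.1 CPM (a count scaled to a library total of 1e+06) in WT Paneth and 4.73 to 12.1 in GRKO Paneth libraries, and at 135 to 160 CPM in WT non-Paneth and 19.6 to 36.2 in GRKO non-Paneth libraries. The 6 Paneth cell markers summed to 345554 to 427473 CPM in the Paneth and 435 to 1674 CPM in the non-Paneth libraries.

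A ribosome is built from a small and a large subunit, each a core of ribosomal RNA covered by proteins that are needed in nearly equal numbers. The messages of these proteins begin with a run of pyrimidines, the 5′ terminal oligopyrimidine (TOP) motif, through which the kinase complex mTORC1 and the RNA-binding protein Larp1 control their translation and stability. Paneth cells secrete large amounts of antimicrobial protein at the crypt base, and the dividing cells above them also need many ribosomes. Because the coding sequences are short and have been copied into the genome as processed pseudogenes, a sequencing read of a ribosomal protein message often matches several places.

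Start regions of 8 members are shown. Rpl13a, Rps19, Rpl31, Rpl13 and Rpl22 have the largest interaction below. Rps12, Rps18 and Rps24 are among the members with the largest difference between GRKO and WT Paneth cells. In the reference genome (GRCm39) the longest run of pyrimidines that opens with C was sought on the transcribed strand, from 50 bases before to 100 bases from the annotated start on. All 8 have a run of at least 10 bases. Other members that lead a comparison have shorter runs, among them Rpl35 and Rpl23a with 7 bases and Rpl9 and Rps4x with 8. The capitals mark the run, and each line holds 24 bases from 5′ to 3′.
Rpl13a, chr7:44778150-44778173, minus strand: acaagaCCTCCTCCTTTCCCaggc
Rps19, chr7:24583872-24583895, plus strand: ctcctcccgagtCCCTTCTCTTgg
Rpl31, chr1:39406981-39407004, plus strand: ctcgcgCCCTTCCTTTCCTacttg
Rpl13, chr8:123829067-123829090, plus strand: acgtcaCTTCCCTTTCgcctgatt
Rpl22, chr4:152410138-152410161, plus strand: gtctgaCTCCTCCCTTTCCCgaca
Rps12, chr10:23663082-23663105, minus strand: cgccggCCTTTTCCCCTgccgccg
Rps18, chr17:34174624-34174647, minus strand: cttccgCTCTCTCTTCCacaggag
Rps24, chr14:24540779-24540802, plus strand: agcggtCCTCTTTTCCTCCTCTCC

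Of the 77 subunit and stalk genes, 59 (76.62%) had such a run of at least 8 bases, against 38.26% of the 12020 other protein-coding genes tested. A run of at least 10 bases stood in 39 (50.65%), against 20.06%. Annotated starts can lie some distance from the base where transcription begins, so a run in this stretch is a match of letters and is not shown to be a TOP motif.

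How far a count can stand for a message was examined first. The authors counted reads that mapped once and fell in a single gene. The coding sequence of the subunit and stalk genes had a median length of 468 bases, from 138 bases in Rpl41 to 1257 bases in Rpl4. Every stretch of 100 coding bases was looked up in the genome, and the share that occurs once had a median of 43.8% over the members. It was under 10% for 6 of them, namely Rpl12, Rpl23a, Rpl24, Rpl36a, Rpl5 and Rps6, and over 90% for 16, among them Rps3 with 98.8% and Rpl13a with 97.3%. Reads were also summed for 321 genes named after 64 members with -ps added, nearly all of them annotated as pseudogenes. These reads were few, at 836 to 2154 counts per library, or 0.189% to 0.267% of the counts of both sets together. Pseudogenes under other symbols were not summed, so this share is a lower bound. The reads that were discarded because they matched several places are not in these counts. A library held between 11126297 and 15910292 counts, and 83 of the 90 members passed the filter on low counts.

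The 7 members left out of the test were Rpl24 and 6 relatives. Rpl24, a protein of the large subunit, had 0 to 5 counts per library and 23 over all 12. Of its exon bases, 71.5% also lie in the long noncoding RNA Gm28037 on the same strand, and reads in such a stretch are assigned to neither gene. Rpl10l had no count in any library, which allows no more than about 3 counts per library. Rpl27rt had at most 1, Rps27rt at most 1, Rpl39l at most 2, Rpl3l at most 3 and Rpl35rt 2 to 12 counts per library. Among the tested members, Rpl13a, Rps10 and Rpl36al also lose stretches to same-strand genes, which were themselves at 0 CPM in every group. The share of exon bases lost is 59.3% for Rpl13a, 53.6% for Rps10 and 15.2% for Rpl36al. Rps10 stood at 0.189 to 2.66 CPM after the scaling used in the tests. Whether these overlaps account for the low counts of Rps10 and Rpl24 was not tested. The overlaps come from GENCODE vM39, a different release from the one the authors counted on. Reads lost to an overlap lower the level of a gene in every library, so levels between genes are uncertain while differences between libraries use the same bases.

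Levels between genes were compared as CPM per kilobase of the canonical transcript in WT Paneth cells, over the 80 members with at least 10 CPM there. Rps12 was highest with 2983 CPM per kilobase, followed by the stalk gene Rplp1 with 1984, Rps14 with 1515, Rpl41 with 1319 and Rpl9 with 1311. The last 2 did not differ beyond the spread of their libraries. The lowest were Rps4l with 14.2 CPM per kilobase, Rps19bp1 with 19.5, Rpl13a with 39.9, Rpl7l1 with 52.9 and Rpl29 with 53.5. The order was alike in the other groups: Rps12 and Rplp1 held the first 2 ranks and Rpl13a rank 78 in each of them. It moved with the length used. Divided by coding length, 3 of the 5 highest were kept, and divided by the share of 100-base stretches that occur once, 2 were kept, with Rps12 among the 5 highest in every version.

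The share of a library given to ribosomal proteins depends on what else is in the library. Of all counts, members took 5.42%, 3.60% and 3.60% in the WT Paneth libraries, 4.29%, 3.54% and 3.51% in WT non-Paneth, 2.94%, 2.53% and 2.58% in GRKO Paneth and 4.66%, 5.05% and 5.33% in GRKO non-Paneth libraries. On this scale WT Paneth and WT non-Paneth libraries overlapped. Lyz1 and the Defa genes, the lysozyme and alpha defensin messages of Paneth cells, took 37.4% to 46.9% of the counts of a Paneth library and at most 0.139% of a non-Paneth library. Without them the WT Paneth libraries stood at 9.39%, 6.78% and 6.49%, above all WT non-Paneth libraries at 4.29%, 3.54% and 3.51%. GRKO Paneth libraries then held 5.41%, 4.03% and 4.51% and GRKO non-Paneth libraries 4.67%, 5.05% and 5.33%, which overlapped. With the scaling used in the tests below (TMM, which sets the bulk of genes equal between libraries), the shares were 5.60% ± 0.922 (SD, n = 3) for WT Paneth, 3.12% ± 0.345 for WT non-Paneth, 3.61% ± 0.723 for GRKO Paneth and 3.39% ± 0.206 for GRKO non-Paneth cells. GRKO Paneth cells lay below WT Paneth cells on all 3 scales with no overlap, at an exact two-sided permutation p = 0.1, the smallest that 3 against 3 libraries can give. In bulk RNA, fewer cells that make many ribosomes and fewer messages per cell cannot be told apart.

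**Figure D1:**
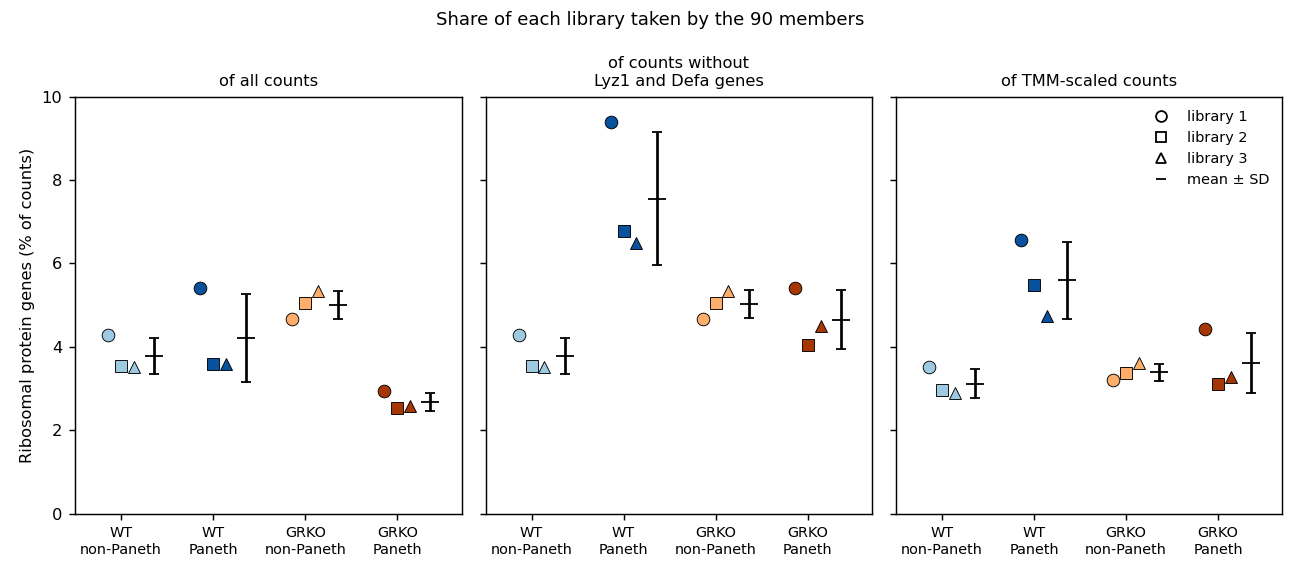
Share of ribosomal protein genes in each library, in percent of all counts (left), of counts without Lyz1 and the Defa genes (middle) and after TMM scaling (right), with 1 point per library and the group mean as a line. WT Paneth libraries reach 9.39% without Lyz1 and the Defa genes, and GRKO Paneth libraries lie below WT Paneth libraries in each panel.

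Replicates of a group differed in a coordinated way. The members of Paneth library 1 were higher than the mean of the other libraries of the group, by a median of 0.37 (log2) in WT, where 76 of 83 were above, and by 0.48 in GRKO, where all 83 were above. WT non-Paneth library 1 also stood above, by 0.27 in 80 of 83 members. The heat map of levels shows this as a step within each of these groups. The labels name no batch. Since these genes move together from library to library, 83 members are not 83 independent measurements, and results that rest on a library are given below with and without it. Both libraries numbered 2 of WT mice carried Xist, at 127 and 257 CPM against at most 0.52 CPM elsewhere, which shows that the sexes were mixed.

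**Figure D2:**
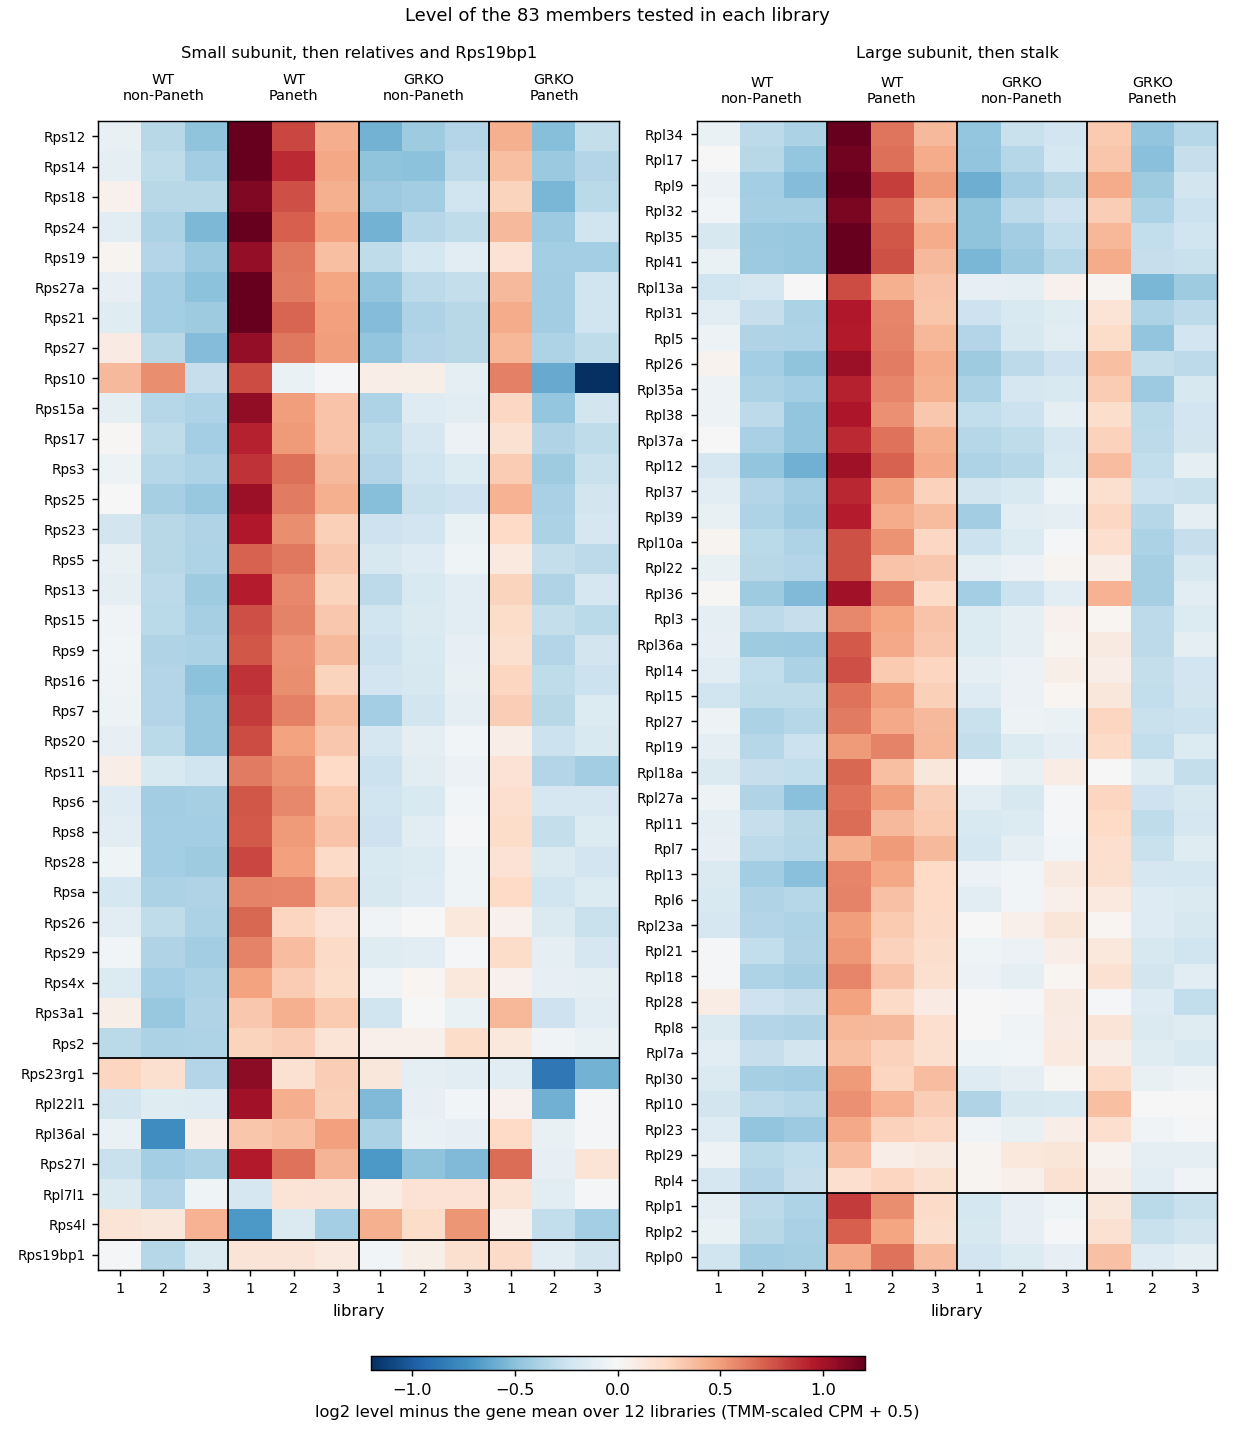
Level of each of the 83 members tested (rows) in each library (columns), as log2 of TMM-scaled CPM + 0.5 minus the mean of the gene over 12 libraries, with the colour scale ending at 1.2 in either direction. The 3 WT Paneth libraries are the reddest block, and library 1 exceeds libraries 2 and 3 in both Paneth groups.

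In WT mice, ribosomal protein genes were higher in Paneth than in non-Paneth cells. Of 83 members tested, 77 were higher and 1 was lower (edgeR quasi-likelihood test, adjusted p under 0.05 over 13057 genes), where 24.0% of all genes were higher and 26.7% lower. The libraries of both groups did not overlap for 79 members in the upward and 1 in the downward direction, against 27.6% and 29.9% of all genes. The median log2 fold change was 0.82, a 1.77-fold difference, and that of all genes was 0.01. By subunit, 30 of 31 small-subunit, 42 of 42 large-subunit and 3 of 3 stalk genes were higher, and the exception was Rps10, whose counts were very low.

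The largest difference belonged to Rps24, a small-subunit protein. Its TMM-scaled CPM was 1954, 1271 and 1079 in the WT Paneth libraries and 706, 591 and 531 in the WT non-Paneth libraries. The groups were apart, by less than the range of the Paneth libraries themselves. The log2 fold change was 1.24 (standard error 0.23, edgeR adjusted p = 0.00052). Rps12, also of the small subunit, had 2487, 1655 and 1288 TMM-scaled CPM against 892, 757 and 681, and differed by 1.22 (standard error 0.25). The large-subunit genes Rpl35, Rpl9 and Rpl41 followed, Rpl35 with 1.21, Rpl9 with 1.19 and Rpl41 with 1.17, the last with the shortest coding sequence of the subunit genes. Rpl35 had 335, 240 and 194 TMM-scaled CPM in WT Paneth and 125, 104 and 104 in WT non-Paneth libraries, again without overlap. Mitochondrially encoded RNA took 1.19% to 2.48% of the WT Paneth and 6.01% to 6.81% of the WT non-Paneth counts. The 7 enterocyte markers, all detected, summed to 465 to 1295 CPM in WT Paneth and 23002 to 27841 CPM in WT non-Paneth libraries, and the 4 tuft cell markers to 131 to 331 and 3.80 to 10.5 CPM. Of the 8 stem and transit-amplifying markers 6 were higher in WT Paneth cells after TMM scaling, among them Lgr5 by 1.62 and Olfm4 by 0.99 on the log2 scale, while the list summed to 5458 to 7118 and 4786 to 6375 CPM. The part of these in the result was not tested.

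Rps6, the substrate of S6 kinase, was higher by 0.88 (standard error 0.15) and Rpsa, known as a laminin receptor, by 0.83 (standard error 0.14). Rpl5 and Rpl11, which bind the p53 regulator Mdm2 together with a ribosomal RNA, were higher by 0.92 and 0.70. The stalk genes Rplp0, Rplp1 and Rplp2, whose products recruit elongation factors, were higher by 0.85, 0.83 and 0.74. Rplp0 had 2210, 2535 and 2080 TMM-scaled CPM in WT Paneth and 1363, 1209 and 1222 in WT non-Paneth libraries, and here library 1 was not the highest. Rps19 and Rps25 were higher by 0.95 and 0.98, and Rpl38 and Rpl10a by 0.92 and 0.74.

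Rpl13a, a large-subunit protein that is widely used as a reference gene in quantitative PCR, had 66.2, 51.7 and 48.6 TMM-scaled CPM in WT Paneth libraries and 32.3, 33.4 and 38.1 in WT non-Paneth libraries. The groups did not overlap, and the log2 fold change was 0.68 (standard error 0.16, edgeR adjusted p = 0.0019). The scaling sets this direction. With library totals alone, which leave the lysozyme and defensin counts in the denominator, the fold change of Rpl13a was -0.0032, 5 members were higher and 3 lower, and the median of the members was 0.13 where that of all genes was -0.68. Of all 13057 genes, 1097 were higher and 7892 lower with library totals. Against the median of all genes, the median of the members was 0.81 (log2) higher on both scalings. A change of scaling moves every gene by about the same amount, so this gap could hardly differ and is no separate support.

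**Figure D3:**
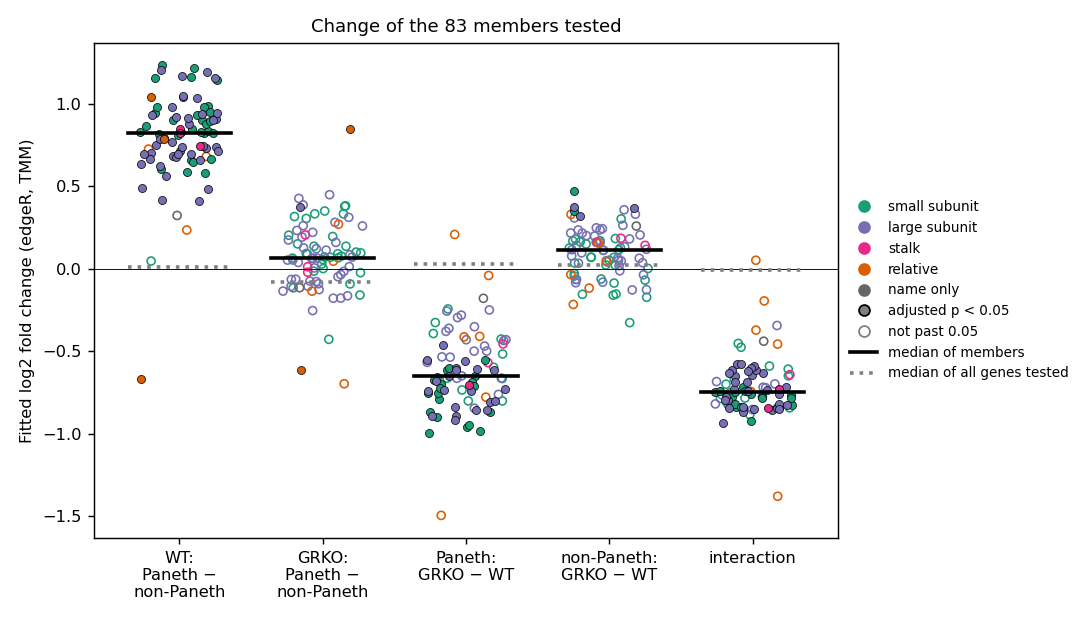
Log2 fold change of each of the 83 members in the 5 comparisons, filled where the adjusted p is under 0.05, with the median of the members as a black line and that of all genes as a grey dotted line. The members sit around 0.82 for WT Paneth against WT non-Paneth and around 0.07 for the same fractions in GRKO mice.

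In GRKO mice the same fractions were nearly level. Of 83 members, 2 were higher and 1 lower in Paneth cells, where 18.0% and 21.2% of all genes were, and the median log2 fold change was 0.07 against -0.08 for all genes. Libraries did not overlap for 3 members in the upward and 1 in the downward direction, against 22.4% and 30.2% of all genes. Rpl10, a large-subunit protein, was higher by 0.37 (standard error 0.13, edgeR adjusted p = 0.032), with 641, 497 and 501 TMM-scaled CPM in GRKO Paneth and 388, 437 and 440 in GRKO non-Paneth libraries. Rps27l was higher and Rps4l lower, and both are relatives taken up below. Paneth library 1 was the high library here as well. Without it the median of the members was -0.11, with 1 member higher and 2 lower, beside 2173 and 2433 of 13379 genes. Under library totals 82 members were lower, with a median of -0.92 beside -1.05 for all genes, of which 9968 of 13057 were lower. Between these fractions the enterocyte markers summed to 489 to 797 CPM in Paneth and 5990 to 7532 CPM in non-Paneth libraries, the stem and transit-amplifying markers to 3658 to 4933 and 8071 to 10024 CPM, and the tuft cell markers to 318 to 873 and 92.8 to 369 CPM. These sums use library totals, and after TMM scaling the stem and transit-amplifying markers did not move together. Lgr5 and Smoc2 were higher in Paneth cells, by 0.85 and 0.42 (log2). Olfm4 and Ascl2 did not pass, at -0.09 and -0.08. Mki67, Top2a, Pcna and Mcm5 were lower, at -0.91, -0.79, -0.42 and -0.54. Mitochondrially encoded RNA took 0.779% to 1.08% of the Paneth and 2.85% to 3.04% of the non-Paneth counts. Their part in the result was not tested.

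Within Paneth cells, ribosomal protein genes were lower in GRKO than in WT mice. Of 83 members, 42 were lower and none higher, where 1.52% of all genes were lower and 1.70% higher. By an unadjusted edgeR p under 0.05 it was 75 lower and none higher, beside 1464 and 2027 of 13057 genes. DESeq2 gave 73 lower and none higher, beside 628 and 837 of 11931 genes. Members made up 21.2% of the 198 genes lower in this comparison. The libraries of both groups did not overlap in the downward direction for 74 members, against 10.2% of all genes, and in the upward direction for none, against 14.2%. The median log2 fold change was -0.65, a 1.57-fold difference, and that of all genes was 0.03. It was -0.70 for the small subunit with 20 of 31 lower, -0.61 for the large subunit with 21 of 42 lower, and -0.57 for the stalk with 1 of 3 lower.

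The genes with the largest difference were Rps12, Rps14, Rps18, Rps24 and Rpl34, by log2 fold changes of -1.0, -0.98, -0.96, -0.95 and -0.92. Rps18, a small-subunit protein, had 1186, 935 and 737 TMM-scaled CPM in WT Paneth libraries and 660, 375 and 437 in GRKO Paneth libraries (standard error 0.21, edgeR adjusted p = 0.045). Rpl34, of the large subunit, had 685, 459 and 387 against 366, 212 and 232 TMM-scaled CPM. In both genes the highest GRKO library, number 1, came close to the lowest WT library, number 3. Rps12 had 2487, 1655 and 1288 TMM-scaled CPM in WT and 1277, 666 and 781 in GRKO Paneth libraries and its groups barely missed each other.

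Rpl13a had the lowest adjusted p among the members. Its 39.1, 26.1 and 28.4 TMM-scaled CPM in GRKO Paneth libraries were all under the 48.6 of the lowest WT Paneth library, and the log2 fold change was -0.84 (standard error 0.16, edgeR adjusted p = 0.041). Rps19, whose human counterpart is mutated in Diamond-Blackfan anaemia, was at -0.90 (standard error 0.20, edgeR adjusted p = 0.045), with 455, 305 and 304 TMM-scaled CPM against 839, 628 and 518. Rps6 was lower by 0.61 (log2), Rpl5 by 0.80, Rpl38 by 0.74, Rplp1 by 0.70 and Rpsa by 0.55. Values that missed the threshold were -0.53 for Rpl11, -0.66 for Rpl10a, -0.73 for Rps25, -0.57 for Rplp2 and -0.45 for Rplp0. Rplp0 had 2050, 1445 and 1485 TMM-scaled CPM in GRKO Paneth libraries, and its highest lay under the 2080 of the lowest WT library.

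The number of members called moved with single libraries, while the median kept its sign. The adjusted p of all 42 lies between 0.041 and 0.050, and another 17 members lie between 0.050 and 0.060. Leaving out a library gave 0 members without WT Paneth library 1, 1 without WT library 2, 56 without WT library 3, 74 without GRKO library 1, and 0 without GRKO library 2 or library 3. Of 13320 to 13379 genes tested, 0, 44, 339, 690, 0 and 6 were called lower in these fits, in that order. The median of the members stayed between -0.84 and -0.50 in all these and in the other alternatives tried. None was called at a false discovery rate of 1%, with library totals, with only these 6 libraries in the fit, or without the WT libraries 2 that carry Xist, where the median was -0.67. Of all genes, 0, 2, 0 and 0 were called lower in these 4 versions, in that order. At an unadjusted edgeR p under 0.05, 75, 73, 71 and 70 members were lower in them. Over the 11924 to 13267 genes tested it was 1464, 1291, 1202 and 1250. With Paneth libraries 1 of both genotypes left out, 65 members were lower at a median of -0.67, beside 485 of 13352 genes. With the replicate number as a block, 60 were lower, beside 385 of 13057 genes. Replicate numbers do not pair the libraries of the genotypes. The 4 tuft cell markers, all detected, summed to 131 to 331 CPM in WT and 318 to 873 CPM in GRKO Paneth libraries, and the 8 stem and transit-amplifying markers, all detected, to 5458 to 7118 and 3658 to 4933 CPM. Most of the stem and transit-amplifying sum is Olfm4, with 4744 to 6168 against 2778 to 4052 CPM and a log2 fold change of -0.71 (edgeR adjusted p = 0.052). None of the 8 passed the test, and the others lay between -0.37 for Ascl2 and 0.13 for Mki67, with Lgr5 at -0.15. Mitochondrially encoded RNA took 1.19% to 2.48% of the WT and 0.779% to 1.08% of the GRKO Paneth counts. Their part in the result was not tested.

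In non-Paneth cells the genotypes differed less in these genes. Of 83 members, 5 were higher in GRKO cells and none lower, which is 6.02% of the members, where 17.5% of all genes were higher and 19.8% lower. By an unadjusted edgeR p under 0.05 it was 9 higher and none lower, beside 2970 and 3103 of 13057 genes. DESeq2 gave 4 higher, beside 2012 of 15195 genes. The median log2 fold change was 0.11 against 0.02. Libraries did not overlap for 18 members in the upward and 1 in the downward direction, against 27.8% and 27.5% of all genes. Rps2, a small-subunit protein, had 812, 812 and 904 TMM-scaled CPM in GRKO non-Paneth libraries and 620, 597 and 601 in WT non-Paneth libraries, with no overlap and a log2 fold change of 0.48 (standard error 0.12, edgeR adjusted p = 0.0049). Rpl23a was higher by 0.38, Rpl4 by 0.37, Rps4x by 0.35 and Rpl29 by 0.32. In Paneth cells the values of Rps2, Rpl23a, Rpl4, Rps4x and Rpl29 between the genotypes were -0.24, -0.46, -0.25, -0.39 and -0.26, in that order.

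Under library totals 38 members were higher in GRKO non-Paneth cells, and 30 or 27 once a trend with exonic or coding length and GC content had been removed. Of all 13057 genes, 4348, 2963 and 3013 were higher in these versions, in that order. Under library totals the median was 0.31 (log2) for all genes and 0.40 for the members. Fits that left out a single library gave 0 to 2 members higher, beside 1358 to 1597 of all genes. The non-Paneth fractions also differ in makeup. The 7 enterocyte markers, all detected, summed to 23002 to 27841 CPM in WT and 5990 to 7532 CPM in GRKO libraries, and the stem and transit-amplifying markers to 4786 to 6375 and 8071 to 10024 CPM. Mitochondrially encoded RNA took 6.01% to 6.81% of the WT and 2.85% to 3.04% of the GRKO counts. Their part in the result was not tested.

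The difference between the genotype effects in both fractions was tested as an interaction. It was negative, meaning that the GRKO Paneth value lay below the sum of the other effects on the log2 scale, for 51 of 83 members and positive for none, where 7.28% of all genes were negative and 11.5% positive. The median was -0.75 (log2) against -0.01 for all genes. By subunit it was 17 of 31, 32 of 42 and 2 of 3 stalk genes, and none of the 6 relatives tested. The members with the largest values were Rpl13a with -0.94 (standard error 0.22, edgeR adjusted p = 0.010), Rps19 with -0.92, Rpl31 with -0.87, Rpl13 with -0.86 and Rpl22 with -0.85.

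Rpl13 had 608, 557 and 477 TMM-scaled CPM in WT Paneth, 359, 303 and 285 in WT non-Paneth, 463, 351 and 350 in GRKO Paneth and 384, 396 and 434 in GRKO non-Paneth libraries. The GRKO Paneth libraries lay on both sides of the GRKO non-Paneth libraries, while the WT fractions were apart. Rpl22 had 452, 339 and 333 in WT Paneth, 251, 212 and 209 in WT non-Paneth, 282, 202 and 233 in GRKO Paneth and 246, 253 and 272 in GRKO non-Paneth libraries, which is the same order. The interaction comes from the same 12 libraries as the comparisons above and adds no samples. The count was 5 at a false discovery rate of 1%, 10 without both WT libraries 2, 13 to 75 with each library left out, and 78 with library totals. Of all genes, 250, 465, 460 to 1028 and 1836 were negative in these versions, in that order. DESeq2 gave 57, beside 1011 of 12398 genes. With the replicate number as a block 73 members were negative, beside 1171 of 13057 genes. The marker sums and mitochondrial shares given for both fractions apply here too, and their part in the result was not tested.

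The balance of the subunits was computed as well. The summed counts of small-subunit genes over those of large-subunit and stalk genes were 0.883, 0.834 and 0.810 in WT Paneth, 0.802, 0.789 and 0.772 in WT non-Paneth, 0.806, 0.751 and 0.756 in GRKO Paneth and 0.743, 0.758 and 0.750 in GRKO non-Paneth libraries. This ratio needs no scaling between libraries. WT Paneth libraries were above the other groups without overlap, with means of 0.842 against 0.788 in WT non-Paneth and 0.771 in GRKO Paneth cells (exact permutation p = 0.1 for each, the smallest possible). GRKO non-Paneth libraries were likewise below WT non-Paneth libraries without overlap, with means of 0.750 against 0.788 (exact permutation p = 0.1). The ratio was higher in library 1 than in libraries 2 and 3 of both Paneth groups, as the levels were.

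Most relatives stayed well under the gene they resemble, and Rps4l alone was lower in WT Paneth than in WT non-Paneth cells. Rps27l encodes a close relative of the small-subunit protein Rps27 and is known as a target of p53. Rps4l is a relative of Rps4x, which lies on the X chromosome. The first 60 coding bases of each pair are shown, joined across exons, so the positions given for Rps27, Rps27l and Rps4x also span introns. A read is assigned to 1 gene of a pair by the bases that differ, which are in capitals (GRCm39).
Rps27, chr3:90120555-90120922, minus strand: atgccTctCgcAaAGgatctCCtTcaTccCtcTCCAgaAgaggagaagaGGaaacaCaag
Rps27l, chr9:66853457-66854166, plus strand: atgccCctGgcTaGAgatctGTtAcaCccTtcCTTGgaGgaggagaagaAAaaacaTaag
Rps4x, chrX:101231921-101232906, minus strand: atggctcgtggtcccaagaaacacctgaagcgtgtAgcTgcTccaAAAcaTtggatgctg
Rps4l, chr6:148256208-148256267, plus strand: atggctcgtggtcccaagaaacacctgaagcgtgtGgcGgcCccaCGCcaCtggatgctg

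Rps27 and Rps27l differ at 18 of these 60 bases, and 192 of their 252 coding bases (76.2%) are the same. Rps4x and Rps4l differ at 7 of 60. The coding sequence of Rps27rt equals that of Rps27 over all 252 bases, so reads lying wholly within it cannot be told apart. Rps27 had 3497 to 8936 counts per library and Rps27rt 0 or 1. Rpl36a and Rpl36al share 87.7%.

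Rps27l had 222, 130 and 155 TMM-scaled CPM in GRKO Paneth and 86.0, 99.3 and 96.0 in GRKO non-Paneth libraries. The groups did not overlap, and the log2 fold change of 0.85 (standard error 0.18, edgeR adjusted p = 0.0014) was the largest upward value of a member in GRKO mice. In WT mice it was 1.04, and GRKO Paneth cells were at -0.41 against WT Paneth cells (edgeR adjusted p = 0.16). Its interaction was -0.19 (edgeR adjusted p = 0.63), where Rps27 had -0.65 (edgeR adjusted p = 0.15). The interactions of Rps27l and Rps27 were not tested against each other. Of the counts of Rps27 and Rps27l together, Rps27l took 30.1% ± 1.63 (SD, n = 3) in GRKO Paneth, 24.6% ± 0.863 in WT Paneth, 24.2% ± 3.19 in WT non-Paneth and 23.0% ± 0.60 in GRKO non-Paneth cells. GRKO Paneth libraries lay above all others on this share (exact permutation p = 0.1 against WT Paneth and against GRKO non-Paneth cells, the smallest possible).

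Rps4l ran the other way from its family. It had 21.1, 30.4 and 25.8 TMM-scaled CPM in WT Paneth and 38.5, 37.8 and 45.9 in WT non-Paneth libraries, a log2 fold change of -0.67 (standard error 0.16, edgeR adjusted p = 0.0027). In GRKO mice it was -0.61 (standard error 0.16, edgeR adjusted p = 0.0062), with 35.8, 27.9 and 25.7 against 46.4, 40.1 and 49.8. It was the one member lower in Paneth cells of both genotypes, and its genotype differences of 0.21 in Paneth and 0.16 in non-Paneth cells did not pass the test. Its share of the counts of the pair was lowest in WT Paneth cells with 2.55%, followed by GRKO Paneth cells with 3.75%, GRKO non-Paneth cells with 5.32% and WT non-Paneth cells with 6.07%.

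Rpl22l1, the relative of Rpl22, was higher in WT Paneth than in WT non-Paneth cells by 0.79 (standard error 0.20, edgeR adjusted p = 0.0042), and it kept 24.5% to 28.2% of the counts of its pair in the group means. Rpl7l1, the relative of Rpl7, did not pass in any comparison, with 0.24 between the WT fractions. Its share of the pair was 7.77% in WT Paneth cells and 10.4% to 11.7% in the other groups. Rpl36al and Rps23rg1 were under 4 TMM-scaled CPM in every library and passed in no comparison. Rps19bp1, the gene that shares only the name, had 22.2, 22.1 and 21.6 TMM-scaled CPM in WT Paneth and 19.5, 15.6 and 17.6 in WT non-Paneth libraries, and it passed in none.

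**Figure D4:**
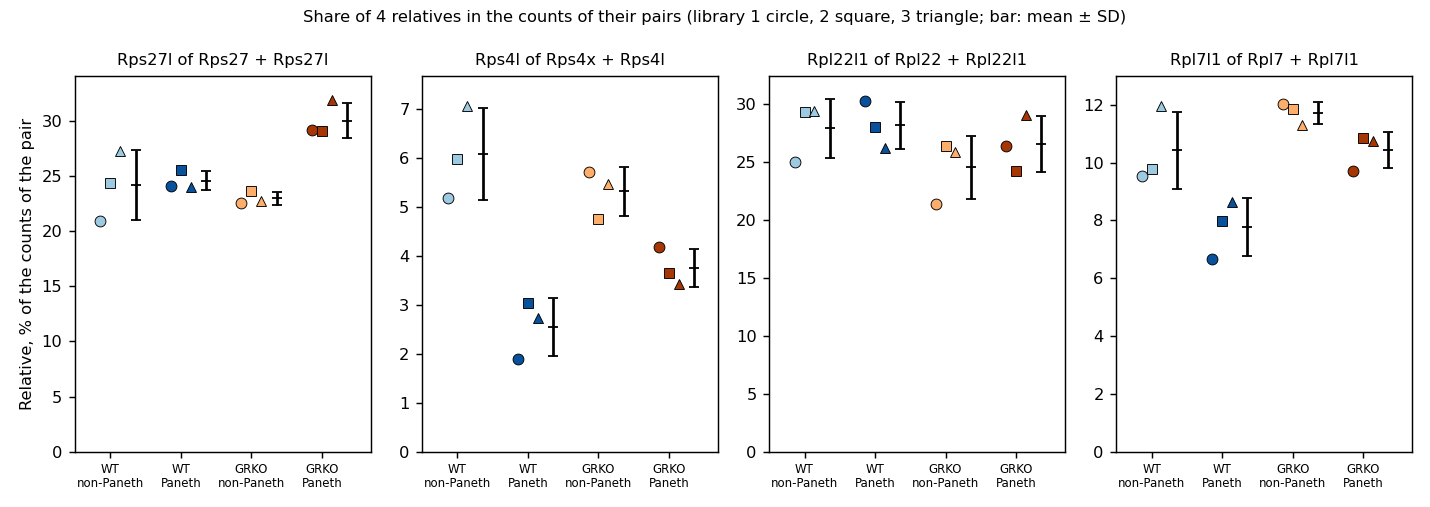
Share of the relative in the counts of a pair (percent), for Rps27l, Rps4l, Rpl22l1 and Rpl7l1, with 1 point per library and the mean of each group. Rps27l reaches 30.1% in GRKO Paneth cells against 23.0% to 24.6% in the other groups, and Rps4l is lowest in WT Paneth cells with 2.55%.

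Since the members are short, their changes were set beside those of other genes of like coding length. In Paneth cells, GRKO against WT, the median log2 fold change was lower at shorter coding length among other genes too. It was -0.24 over 208 other genes under 300 bases, -0.18 over 1254 genes of 300 to under 600 bases and -0.07 over 1643 genes of 600 to under 900 bases. The members in these bins were at -0.68 (9 genes), -0.69 (49 genes) and -0.53 (22 genes). Between the WT fractions other genes of 300 to under 600 bases had a median of 0.16 and the members 0.83. After removal of a trend with coding length and GC content, fitted on the other genes, the members had a median of -0.50 in GRKO against WT Paneth cells. There 27 members were lower, beside 192 of 13057 genes. Then 72 members were higher in WT Paneth than in WT non-Paneth cells, beside 3788 of 13057 genes. Among the 75 subunit and stalk genes with at least 10 CPM, coding length and the GRKO difference in Paneth cells had a Pearson correlation of 0.39 and a Spearman correlation of 0.34, across genes that share libraries. The share of 100-base stretches that occur once had -0.14 and -0.12.

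**Figure D5:**
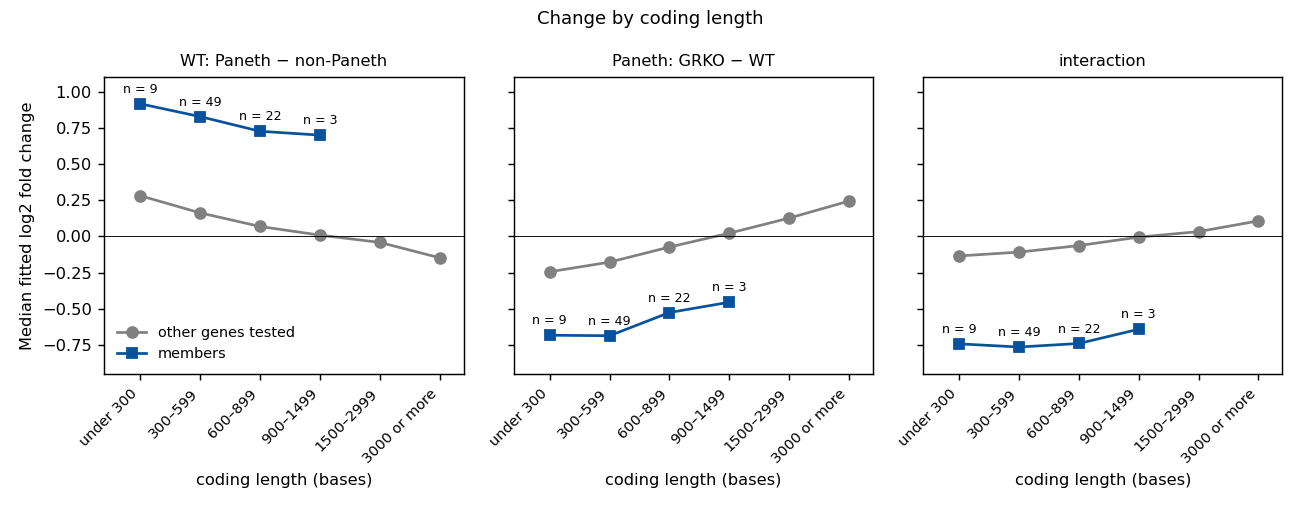
Median log2 fold change by coding length (bases) for members (squares, with the number of genes) and all other protein-coding genes tested (circles), in 3 comparisons. Members of 300 to under 600 bases lie at -0.69 for GRKO against WT in Paneth cells, where other genes of that length lie at -0.18.

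Abundance and the pyrimidine run were looked at in the same way. Other genes with at least 100 CPM, 1371 in number, had a median of 0.14 for GRKO against WT in Paneth cells, and the 75 members above that level had -0.65. Subunit and stalk genes with a run of at least 8 bases near the start were at -0.68 (58 genes) and those without at -0.54 (18 genes), and between the WT fractions at 0.84 and 0.71. With a limit of 10 bases they were at -0.67 and -0.63 (38 genes each), and between the WT fractions at 0.87 and 0.80. Other genes with and without a run of at least 8 bases were at 0.05 and 0.06 in the genotype comparison. Of the pseudogenes named after a member, 15 had enough counts for the test. In Paneth cells of GRKO against WT mice none passed, 12 of 15 values were negative, and the median was -0.42.

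Other genes of the pathway were counted from lists of gene names. Of 24 translation factors and other messages known or likely to carry a TOP motif, 15 were higher and 1 lower in WT Paneth than in WT non-Paneth cells, where 24.0% and 26.7% of all genes were. Eef1b2, an elongation factor subunit, was higher by 0.93 (standard error 0.16), Nap1l1, a histone chaperone, by 0.92 and Rack1, a protein bound to the small subunit, by 0.84, while Vim, an intermediate filament gene of other cell types, was lower by 1.17. In GRKO against WT Paneth cells Eef1b2 and Rack1 were lower, by -0.65 and -0.61, and the other 22 did not pass, where 1.52% of all genes were lower. In GRKO against WT non-Paneth cells 10 were higher and 1 lower, beside 17.5% and 19.8% of all genes. The interaction was negative for 8 and positive for none, beside 7.28% and 11.5% of all genes, led by Npm1, a nucleolar chaperone, with -0.86.

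Mitochondrial ribosomal proteins, made from nuclear genes for a different ribosome, gave another count. Of 77 tested, 10 were higher and 6 lower in WT Paneth cells, with a median of 0.10, where 24.0% and 26.7% of all genes were. Mrpl52 was higher by 0.79 and Mrps36 lower by 0.85. In GRKO mice 1 was higher and 30 were lower in Paneth cells, where 18.0% and 21.2% of all genes were, among them Mrpl35 at -0.69 and Mrpl45 at -0.66. Between GRKO and WT Paneth cells Mrpl13 alone passed, at -0.62 (edgeR adjusted p = 0.045), where 1.52% of all genes were lower, and the median of the list was -0.23. In non-Paneth cells 16 were higher and 1 lower in GRKO mice, beside 17.5% and 19.8% of all genes, led by Mrps2 and Mrps27 with 0.61 each. The interaction was negative for 14, beside 7.28% of all genes.

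Of 27 genes that regulate mTORC1 or TOP messages, 5 were higher and 8 lower in WT Paneth cells, where 24.0% and 26.7% of all genes were. Eif4ebp1, a repressor of cap-dependent translation, was higher by 1.60 and Ddit4, an mTORC1 inhibitor, by 1.25, while Sesn1, a leucine sensor, was lower by 2.16 and the Rag GTPase gene Rragd by 1.96. None passed between GRKO and WT Paneth cells (edgeR), where the values lay between -0.45 and 0.64. In non-Paneth cells 6 were higher and 2 lower in GRKO mice, beside 17.5% and 19.8% of all genes, with Sesn1 at -1.37 and Larp1 at 0.66. The interaction passed for 3, namely Sesn1 with 0.91, Myc with -0.85 and Tsc2 with 0.52, beside 11.5% of all genes with a positive and 7.28% with a negative interaction.

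Genes used as references in quantitative PCR were also counted. Of 17 tested, 7 were higher and 7 lower in WT Paneth than in WT non-Paneth cells, where 24.0% and 26.7% of all genes were. Actb and Gapdh were lower by 1.71 and 1.54, and the ribosomal protein genes Rps18 and Rplp0 were higher by 0.99 and 0.85, in opposite directions. In GRKO against WT Paneth cells the 2 reference genes that passed were both ribosomal, Rps18 and Rpl13a, at -0.96 and -0.84, where 1.52% of all genes were lower.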

How the data were processed

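Stranded TruSeq libraries were read from a single end. The authors trimmed the reads with Trimmomatic 0.39 and aligned and counted them with STAR 2.7.10a on mm39, per the processing notes. The deposited values are raw counts per gene, with no normalization. Which strand was counted, and how many mice gave a library, are not given in the sources used here, so p-values measure the spread between these libraries. The methods call the annotation gencode v28. Here 54749 of 55414 identifiers were named through GENCODE vM39, a different release, and sequences and coordinates come from GRCm39. For RNA extraction the labels give Aurum, the paper's methods RNeasy Plus Micro.

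Group means were compared by edgeR 4.0.16 under R 4.3.3 (filterByExpr, TMM, glmQLFit with robust estimates, glmQLFTest) in 1 fit over 12 libraries and 4 groups, with Benjamini-Hochberg adjustment over 13057 genes and a false discovery rate of 5%. The script was tested on simulated data. Of genes changed by 0.6 (log2), 33.3% were recovered for GRKO against WT in Paneth cells and 10.6% for the interaction. At a change of 1 (log2) it was 83.6% and 52.2%. False calls made up 4.61% to 8.55% of all calls over the comparisons, highest in the interaction, where 5% was set. Library totals were 11126297 to 15910292 counts. Every column was mapped to a sample by its title. Counts of any 2 libraries of a group differed by a chi-square per degree of freedom of 13.2 to 50.4, so none was a repeat. Alternatives were DESeq2 1.42.0, RLE factors, library totals, scaling without Lyz1 and Defa genes or without the members, other filters, only the groups compared, a replicate block, length and GC trends, leaving out each library, and a false discovery rate of 1%. Leaving out Paneth libraries 1 together or WT libraries 2 together was chosen after seeing the data, as was the window of the start regions.

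Replicate numbers pair the WT fractions: after removal of group means, libraries of 1 number correlated by 0.35, 0.23 and 0.24, above the limit of 0.1. For the GRKO fractions it was 0.013, 0.26 and 0.47. The main fit leaves this pairing out, and counts with the replicate number as a block are given with the alternatives.

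Members and lists were chosen with earlier results of these data known. The genes named were Rpl13a, Rpsa, the stalk genes, Rps6, Rpl5, Rpl11, Rps19, Rpl38, Rpl24, Rpl10a, Rps25, members with a relative, untested members, the 5 highest and 5 lowest per kilobase, and per comparison the 5 largest values in each direction past the threshold with 10 CPM in a group and no overlap of libraries. Other named genes were chosen after their values were seen. The limit given for a count of 0 is 3 counts and covers counting error only.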

Additional observations from a re-analysis of the deposited data

Results flagged for a closer look

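The genotype effect differed between the fractions for 51 members, whose interaction in the edgeR quasi-likelihood test passed an adjusted p of 0.05, all with a negative value. Among the members named in the text these include Rpl13a with -0.94 (log2, adjusted p = 0.010), Rps19 with -0.92 (adjusted p = 0.031), Rpl31 with -0.87 (adjusted p = 0.020), Rpl13 with -0.86 (adjusted p = 0.010) and Rpl22 with -0.85 (adjusted p = 0.013). In each of these 5 genes all WT Paneth libraries lay above all WT non-Paneth libraries, and the GRKO fractions overlapped. Of all 13057 genes, 950 passed with a negative value. The number of members that passed was 13 to 75 when a library was left out, and 10 without both WT libraries numbered 2. Of all genes, 460 to 1028 and 465 were negative there.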

How the results depend on the processing

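With library totals alone, 5 members were higher and 3 lower between the WT fractions, 0 higher and 82 lower between the GRKO fractions (median -0.92), 0 lower in GRKO Paneth cells, 38 higher in GRKO non-Paneth cells, and 78 negative in the interaction; Rpl13a was then at -0.0032 between the WT fractions, Rpl10 and Rps27l at -0.62 and -0.15 between the GRKO fractions, and Rps27l at 0.073 in GRKO against WT non-Paneth cells. Of 13057 genes, library totals gave 1097 higher and 7892 lower between the WT fractions and 9968 lower between the GRKO fractions. They gave 2 lower in GRKO Paneth cells, 4348 higher in GRKO non-Paneth cells and 1836 negative in the interaction. At a false discovery rate of 1% the counts were 1 higher between the GRKO fractions, 0 lower in Paneth cells, 1 higher in non-Paneth cells and 5 in the interaction. Over all genes these were 1732, 0, 1281 and 250. Removal of the exonic length and GC trend gave 2 lower between the GRKO fractions, 21 lower in Paneth and 30 higher in non-Paneth cells, with Rps27l at 0.041 in the last. The coding length and GC trend gave 11 lower between the GRKO fractions (median -0.084), 27 lower in Paneth and 27 higher in non-Paneth cells, with Rpl41 at -0.025 between the WT fractions. Over all 13057 genes, the exonic trend fit gave 3309, 167 and 2963, and the coding trend fit 3293, 192 and 3013, in that order. Without Paneth libraries 1 of both genotypes it was 1 higher and 3 lower between the GRKO fractions (median -0.11) and 65 lower in Paneth cells, with Rps4l at -0.067 there. Over all 13352 genes these were 2419, 2888 and 485. Without WT libraries 2 it was 0 lower in Paneth cells, 1 higher in non-Paneth cells and 10 in the interaction, beside 0, 1513 and 465 of 13267 genes. With only the groups compared, it was 0 lower in Paneth and 12 higher in non-Paneth cells, beside 0 of 11924 and 2752 of 12682 genes. DESeq2 gave 73 lower in Paneth cells, beside 628 of 11931 genes. In non-Paneth cells RLE factors gave 2 higher, no filter 1 and the stricter filter 2, beside 1897 of 13057, 2381 of 24077 and 1927 of 12459 genes. Between the GRKO fractions no filter gave 1 higher, beside 2370 of 24077 genes. The cause was not tested.

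With each library left out, the members higher between the WT fractions were 77 to 79 and those lower stayed at 1. Between the GRKO fractions it was 1 to 2 higher and 0 to 2 lower, with a median of -0.11 without GRKO Paneth library 1 and up to 0.22. In Paneth cells it was 0 to 74 lower, in non-Paneth cells 0 to 2 higher, and in the interaction 13 to 75 negative. Of all genes, 2793 to 3393 were higher and 2740 to 3451 lower between the WT fractions. Between the GRKO fractions 2035 to 2445 of all genes were higher and 1639 to 2433 lower. In Paneth cells 0 to 690 were lower, in non-Paneth cells 1358 to 1597 higher, and in the interaction 460 to 1028 negative. No alternative gave a member higher in GRKO Paneth cells, lower in GRKO non-Paneth cells or positive in the interaction.

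With the replicate number as a block, 78 members were higher between the WT fractions, 60 lower in GRKO Paneth cells, 3 higher in GRKO non-Paneth cells and 73 negative in the interaction. Over all 13057 genes these were 3272, 385, 2134 and 1171. For the fractions and the interaction the block was the number within a genotype. The comparisons of genotypes used a separate model with the number within a fraction, so their counts are not comparable with the others. Between genotypes the numbers do not pair the libraries, with correlations of 0.098, 0.16 and -0.098 in Paneth and -0.094, 0.17 and -0.085 in non-Paneth cells. Short genes, reads discarded at copies and 3 libraries per group limit what these counts can show, and the discarded reads were not analysed here.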
